A study of Mus musculus with 13 samples.

Results

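Mouse CD8+ T cells that lack the transcription factor Batf were compared before and after 3 days of stimulation in culture. The comparison rests on 7 of the 13 arrays of the series, namely 3 arrays of Batf-/- naive cells (day 0) and 4 arrays of Batf-/- day 3 in vitro effector cells, which were chosen by their titles. All probe sets that the platform annotation assigns to a single gene symbol were used, which, without the control probe sets, are 34945 of 45101, and each of the resulting 18193 genes was represented by its brightest probe set. The Batf-/- mice (BATF-/- in the labels) were on the C57Bl/6 background and carried the P14 transgene, a T cell receptor specific for a peptide of the lymphocytic choriomeningitis virus. The naive cells were enriched from these mice by magnetic depletion of other cells, without a positive sort. The day 3 cells had been cultured on plate-bound antibodies to CD3 and CD28 with recombinant human IL-2 at 100 U/ml. The 6 remaining arrays, 2 of wild-type P14 naive cells and 4 of wild-type P14 day 3 cells treated the same way, were used to estimate the spread and to test whether a change differed between genotypes. All 4 groups carried the P14 transgene, and the labels limit the Batf deletion to no cell type. The labels do not say whether the arrays of a group came from separate mice, so p-values measure only the spread between these arrays, which may be technical.

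Naive CD8+ T cells are small, non-dividing cells that depend on IL-7 and circulate through lymph nodes. Engagement of the T cell receptor and CD28 makes them grow, switch to glycolysis, divide and acquire granzymes and cytokines, while IL-2 acts through STAT5 to sustain the process. Batf belongs to the AP-1 family of transcription factors, has no activation domain of its own, pairs with Jun proteins and binds DNA together with Irf4, and is known to be required for the expansion of effector CD8+ T cells.

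All values below are log2 probe set intensities, or differences of them, and a difference of 1 is a 2-fold change. The intensity of a probe set cannot be compared with that of another, so levels are compared only between arrays. Genes are said to have risen, fallen or passed where the adjusted p of the limma fit was under 0.05.

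The targeted gene was low in all Batf-/- arrays. Batf read 5.60, 6.06 and 5.94 in naive replicates 1 to 3, and 6.77, 5.56, 5.61 and 6.00 in day 3 replicates 1 to 4. The wild-type arrays lay between 8.63 and 9.36, above every Batf-/- array. Between naive and day 3 the Batf-/- cells differed by 0.12 (SE 0.24, adjusted p = 0.721), and day 3 replicate 1 held the highest value. The labelled cell type was present in both states: Cd3e, a chain of the CD3 complex, read 9.62, 10.07 and 10.01 in the naive arrays and 9.90, 9.82, 9.80 and 9.82 at day 3. The CD8 chains stayed bright: Cd8b1 fell by 0.83 and Cd8a by 0.41. The arrays of Cd8a overlapped, and its change was -0.63 without naive replicate 1 and between -0.28 and -0.40, no longer passing, without naive replicates 2 or 3 or day 3 replicates 2, 3 or 4. Cd4 read 5.34, 5.41 and 5.38 in naive cells and 5.56, 5.65, 5.67 and 5.49 at day 3. It rose by 0.21 (adjusted p = 0.0327), but the mean of its probe sets, at 0.16, did not pass.

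The naive preparations also held RNA of genes that mark other cells. The summed intensity of 14 B cell markers was 10286, 8996 and 13629 in the naive arrays and 566 to 576 in the day 3 arrays. Neutrophil markers summed to 9598 in naive replicate 1, 378 in replicate 2 and 1039 in replicate 3, against 199 to 210 at day 3. Naive replicate 1 thus stood apart: it had the highest neutrophil, monocyte and erythroid or platelet sums and the lowest sum of CD8 T cell markers, 22862 against 31214 and 30538. Of 12 neutrophil markers only 2 were dim in that array, compared with 9 and 6 in the other naive arrays and 11 or 12 at day 3, where dim means below the log2 value of 5.08 that bounds the lowest 40% of genes. The median change of neutrophil markers was -1.44, and -0.37 without that array. For monocyte and macrophage markers the sums were 5110, 1281 and 2481 in naive cells and 511 to 559 at day 3. Erythroid and platelet markers summed to 6967, 3045 and 3643 in naive cells and 274 to 296 at day 3. Each of these naive ranges lay above the day 3 range, and fewer such cells and less RNA per cell cannot be told apart in bulk samples. Of 8 NK cell markers 7 fell, where 23.2% of all genes did, with a median change of -2.65 (-2.76 without naive replicate 1). Their sum, 4090, 2066 and 2648 in naive cells, overlapped the day 3 range of 2074 to 2227, and the list includes Il2rb, which rose by 2.36. Without Il2rb and Klrk1, which activated T cells use too, the sum was 3601, 1387 and 1878 in naive cells and 158 to 190 at day 3. These 2 genes were left out after their values had been seen. Of 9 dendritic cell markers 7 fell, but their sums of 3209, 3653 and 3721 in naive cells overlapped the day 3 range of 2936 to 3250. CD4 T cell markers summed to 357, 448 and 401 in naive cells and to 2071 to 2343 at day 3. The largest change in that list was that of Ctla4, at 5.88. Cell division genes were also highest in naive replicate 1, as described below.

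**Figure D1:**
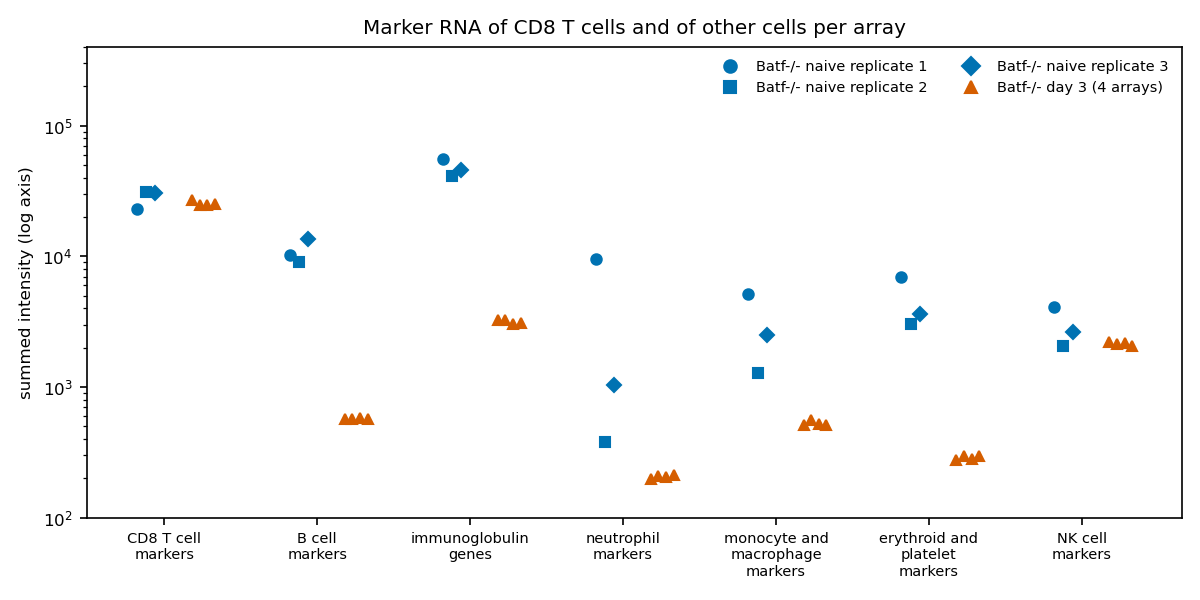
Summed probe set intensity (log axis) of marker lists for CD8 T cells and for other cells in each of the 7 Batf-/- arrays, with naive replicates 1 to 3 as blue symbols and the 4 day 3 arrays as orange triangles. B cell markers lie at 8996 or above in the naive arrays and at 576 or below at day 3, and naive replicate 1 stands out for neutrophil markers at 9598.

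Many genes changed. Of 18193 genes 8545 passed (47%), of which 4331 were higher (23.8%) and 4214 lower at day 3 (23.2%). The 3 naive and 4 day 3 arrays did not overlap for 8775 genes (48.2%). Large changes were fewer: 969 genes rose and 884 fell by at least 2-fold (5.33% and 4.86%), and 316 rose and 242 fell by at least 4-fold (1.74% and 1.33%). The median change over all genes was 0.05, with quartiles of -0.20 and 0.23. Within groups, the median SD of a gene was 0.13 in the naive and 0.09 in the day 3 arrays.

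**Figure D2:**
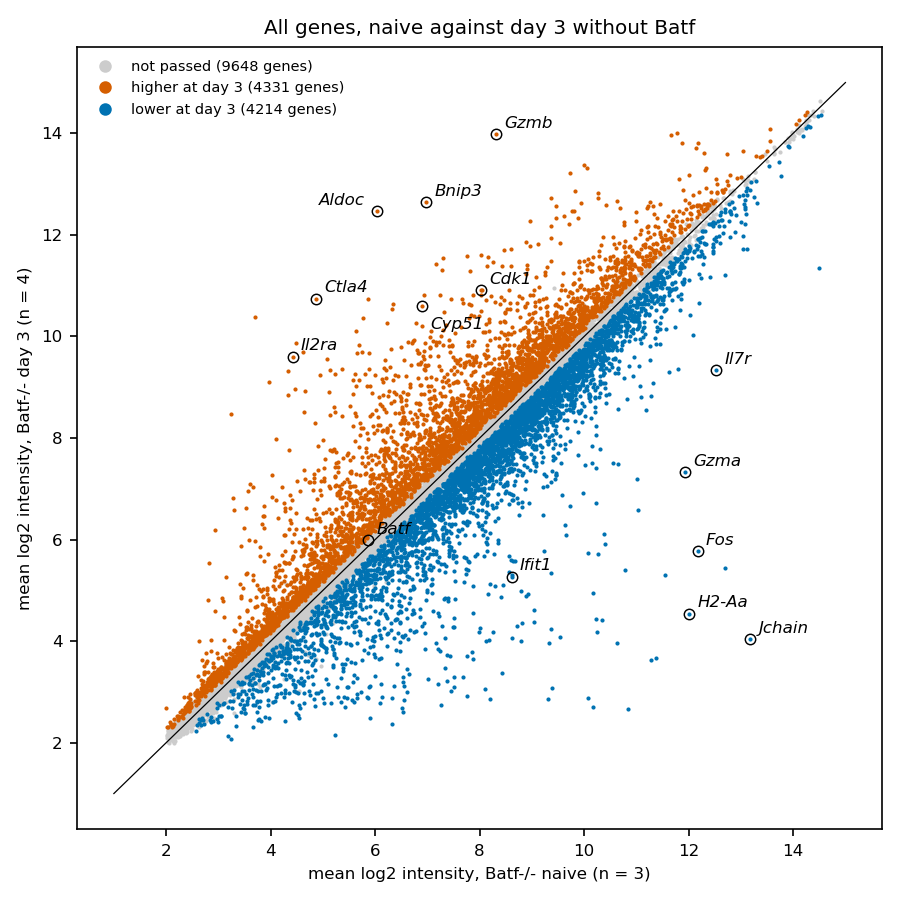
Mean log2 intensity of each of 18193 genes in Batf-/- naive cells (horizontal axis, 3 arrays) against Batf-/- day 3 cells (vertical axis, 4 arrays), with genes that rose in orange, genes that fell in blue and the others in grey. Batf lies on the diagonal, Gzmb and Aldoc far above it and Jchain and Fos far below it.

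Of the 15 largest increases, 7 belonged to the lists of glycolysis genes and of genes that respond to low oxygen, of which the second was drawn up after these increases had been seen. Aldoc, an isoform of the glycolytic enzyme aldolase, read 5.81, 5.85 and 6.43 in naive cells and 12.48, 12.45, 12.49 and 12.48 at day 3, an increase of 6.44 (SE 0.13, 87.0-fold, adjusted p = 1.96e-12). Ctla4, an inhibitory receptor for B7 ligands, went from 5.15, 4.67 and 4.78 to 10.86, 10.67, 10.70 and 10.75, an increase of 5.88 (SE 0.11, adjusted p = 6.05e-13). Gzmb, the granzyme that cleaves caspases in target cells, read 8.02, 8.73 and 8.17 in naive cells and 13.93, 13.97, 14.03 and 13.97 at day 3, an increase of 5.67 (SE 0.13, 51.0-fold). In each of these genes the naive and day 3 arrays were separated by more than 5 log2 units. Il2ra, the inducible chain of the IL-2 receptor, rose from 4.17, 4.53 and 4.56 to 9.47, 9.60, 9.68 and 9.67. Tnfrsf9, which encodes the costimulatory receptor 4-1BB, rose from 5.64, 5.90 and 6.06 to 10.60, 10.73, 10.79 and 10.80. The low-oxygen genes Bnip3, Ak4, P4ha2, Plod2, Mgarp and Ankrd37 rose by 4.60 to 5.67. Ak4 and also Vldlr, a lipoprotein receptor that rose by 4.51, were highest among naive arrays in replicate 1. The others were Fam183b (5.13), Tspoap1 (4.48) and Myl10, a myosin light chain gene (4.48). In 8 of the 15 the naive mean was dim, where intensity follows RNA less closely, so these changes may be understated. When the probe sets of each gene were averaged instead, Ak4 rose by 2.49, Vldlr by 2.94, Tnfrsf9 by 3.72 and Il2ra by 4.34.

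Of the 15 largest decreases, 10 are immunoglobulin genes or members of the other-cell lists. Which cells held this RNA was not tested. Of 24 measured immunoglobulin genes 18 fell and 1 rose, where 23.2% of all genes fell. Of the 51 genes that fell at least 16-fold, 32 were neither immunoglobulin genes nor members of the other-cell lists. Jchain, the joining chain of secreted antibodies, read 13.33, 13.01 and 13.20 in naive cells and 4.03, 4.22, 3.85 and 4.04 at day 3. Lyz1 and Lyz2, the lysozymes of granular and phagocytic cells, fell by 8.16 and 6.06, and both were highest in naive replicate 1, with Lyz2 at 11.61, 8.82 and 10.29. Without that array they fell by 7.47 and 5.38, and without naive replicate 2 by 8.78 and 6.77. Car1, a carbonic anhydrase of red cells, fell by 7.66, Ppbp, a platelet chemokine, by 6.44, Car2 by 6.25 and the B cell gene Ms4a1 by 6.65. H2-Aa, an MHC class II chain, fell by 7.47, and Iglv1, Igha and Igkv8-30, with 1 more kappa variable gene, fell by 7.20 to 7.72. Igkv8-30 fell by 6.54 without naive replicate 1. With the mean of their probe sets the other kappa gene fell by 3.03, Lyz1 by 5.32, Iglv1 by 5.93, H2-Aa by 6.01 and Cybb by 4.52. Cybb, a subunit of the phagocyte oxidase, fell by 6.32, and Mpeg1, a pore-forming protein of phagocytes, by 5.91. In all of the 15 except Igha, Car2 and Fos the day 3 mean was dim, so these decreases may be understated. Fos was the member of the 15 that T cells are known to use themselves. It is described with the early response genes.

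**Figure D3:**
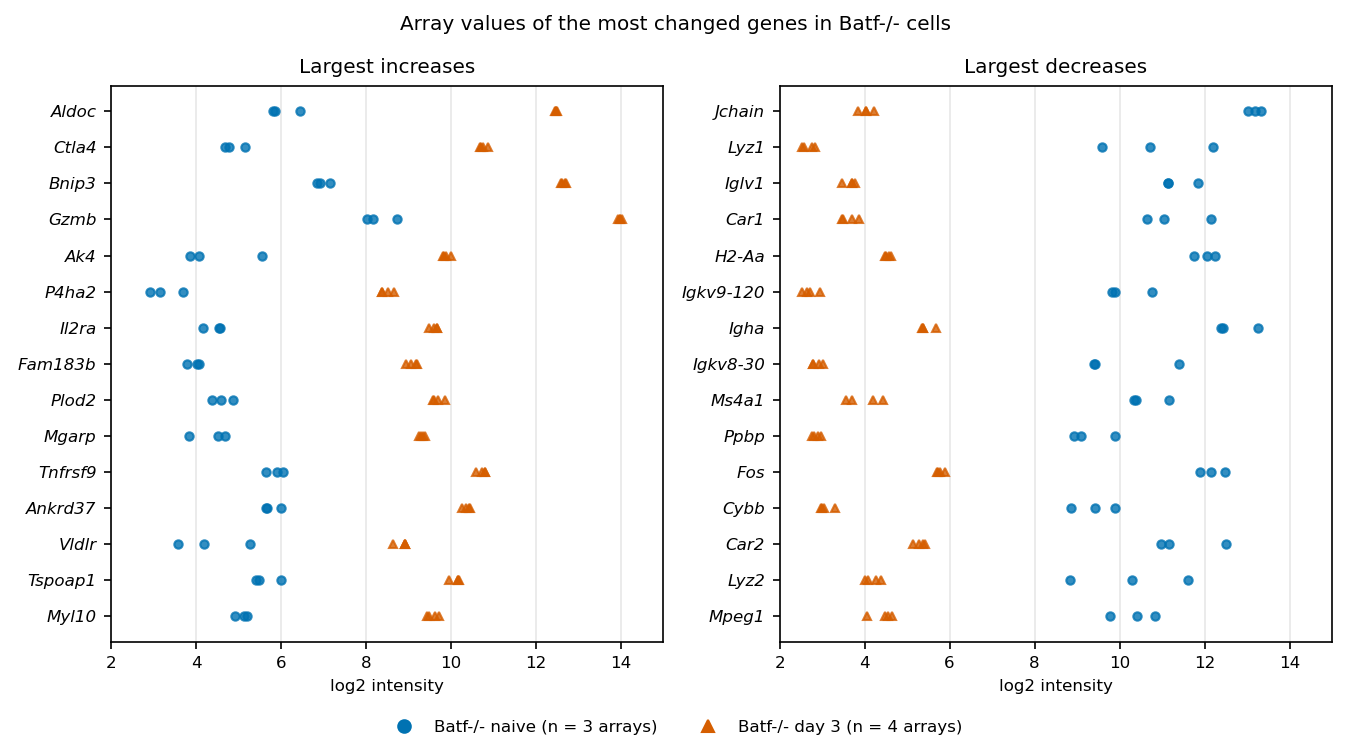
Log2 intensity in every Batf-/- array for the 15 largest increases (left panel) and the 15 largest decreases (right panel), with blue circles for the 3 naive and orange triangles for the 4 day 3 arrays. These 30 genes were chosen among those whose arrays do not overlap between the groups. The naive spread is wide for Ak4, Vldlr, Lyz1 and Lyz2, where replicate 1 is highest.

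Glycolysis genes rose together. All 18 measured members passed and were higher at day 3, where 23.8% of all genes were, with a median change of 2.41 and a range from 0.33 to 6.44. Hk2, the inducible hexokinase, read 7.55, 6.16 and 7.07 in naive cells and 10.76, 10.76, 10.86 and 10.88 at day 3 (3.89, SE 0.23). Tpi1, triose phosphate isomerase, rose by 3.37, Pkm, pyruvate kinase, by 2.76 and the glucose transporters Slc2a1 and Slc2a3 by 2.71 and 2.56. Ldha, which makes lactate, was bright already in naive cells and rose by 1.56. Of the lactate exporters, Slc16a3 rose by 3.08 from a dim naive level, while Slc16a1 differed by 0.33 with overlapping arrays and an adjusted p of 0.0456 that did not hold without most single arrays. Slc16a1 was highest among naive arrays in replicate 1, without which its change was 0.52.

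Genes known to respond to low oxygen through HIF-1 moved with them. This list was added after the largest changes had been seen, so its counts are a description. Of 19 measured members 17 rose and 1 fell, against 23.8% and 23.2% of all genes, with a median change of 2.84. Bnip3, a mitophagy receptor, read 7.16, 6.85 and 6.91 in naive cells and 12.59, 12.61, 12.69 and 12.70 at day 3. Egln3, a prolyl hydroxylase that marks HIF for destruction, went from 7.50, 7.18 and 7.22 to 11.52, 11.50, 11.59 and 11.58 (4.24, SE 0.10). Day 3 values of both genes spanned less than 0.2 log2 units. Ndrg1 rose by 3.83, P4ha1, a collagen prolyl hydroxylase, by 2.84 and Vegfa, the angiogenic growth factor, by 1.65 (2.75 with the mean of its probe sets). Adm, the peptide adrenomedullin, fell by 1.28, against the direction of the list. The transcript of Hif1a itself rose by 0.71 (SE 0.07).

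The HIF-1 response core ACGTG was looked for on both strands of the RefSeq promoters of assembly GRCm38.p6, 250 bases before to 50 bases after each start, where a match to the letters describes the sequence and shows no binding. It occurred in 26.1% of the 14452 measured genes with a promoter in the table (21.8% of all 27025 genes there), in 13 of 17 glycolysis genes (76.5%) and in 14 of 17 low-oxygen genes (82.4%). Of genes that rose at least 4-fold 36.9% held it, and of those that fell at least 4-fold 22.3%. The motifs were chosen after the gene groups had been seen to move. Bnip3 and Egln3, both with a match, are shown as examples from the most changed low-oxygen genes that were not dim in naive cells. Ankrd37, which was not dim either and rose by 4.60, more than Egln3 at 4.24, is not shown. In these and the sequences further on, the 250 bases before the start are printed in the direction of the gene with matches in capitals, and a site that reads ACGTG on both strands, as in CACGTG, counts for each strand.
Bnip3, chr7:138909507-138909756, minus strand: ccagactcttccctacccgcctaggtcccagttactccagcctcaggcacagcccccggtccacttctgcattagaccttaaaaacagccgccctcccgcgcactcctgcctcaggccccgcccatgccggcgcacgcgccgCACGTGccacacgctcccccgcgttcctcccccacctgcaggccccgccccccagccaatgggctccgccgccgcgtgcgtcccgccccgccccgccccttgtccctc
Egln3, chr12:54203875-54204124, minus strand: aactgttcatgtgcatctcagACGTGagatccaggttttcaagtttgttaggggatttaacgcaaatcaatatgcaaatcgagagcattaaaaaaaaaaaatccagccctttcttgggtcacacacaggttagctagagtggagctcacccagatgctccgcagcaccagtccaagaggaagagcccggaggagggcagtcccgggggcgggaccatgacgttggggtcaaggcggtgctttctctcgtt

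Mitochondrial pathways moved little by comparison. The counts here and in the groups that follow stand against 23.8% of all genes that rose and 23.2% that fell. Of 27 oxidative phosphorylation genes 18 rose and 3 fell, with a median change of 0.25 and none outside -0.47 to 0.65. Ndufa9 and Uqcrfs1, subunits of complexes I and III, each rose by 0.59, and Ndufa4 and Cyc1 fell by 0.47 and 0.31. In the citric acid cycle list 8 of 17 genes rose and 2 fell. Idh1, the cytosolic isocitrate dehydrogenase, rose by 1.19 and Ogdh fell by 0.49. In fatty acid oxidation 5 of 15 rose and 3 fell, close to the shares over all genes, with Acadl, a long-chain dehydrogenase, at 1.07 and Lipa, the lysosomal acid lipase, at -0.75. Cpt1a, which admits fatty acids to mitochondria, differed by -0.21 and did not pass.

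Cholesterol synthesis genes rose as uniformly as glycolysis genes. All 18 measured members passed, with a median change of 2.64 and no overlap between the arrays of the groups in any of them, where 25.0% of all genes lay higher without overlap. Cyp51, a sterol demethylase, read 6.75, 7.0 and 6.94 in naive cells and 10.54, 10.63, 10.62 and 10.58 at day 3 (3.69, SE 0.08, 12.9-fold). Fdps, Fdft1, Idi1 and Sqle, enzymes from the isoprenoid steps to squalene epoxide, rose by 3.31, 3.25, 3.24 and 3.09, although with the mean of their probe sets Fdps rose by 1.67 and Fdft1 by 1.54. Hmgcs1, an early enzyme of the pathway, went from 9.80, 10.07 and 9.94 to 12.43, 12.71, 12.72 and 12.64. The smallest change was that of Ebp, a sterol isomerase, at 0.71. Insig1, which retains the SREBP activators of these genes in the endoplasmic reticulum, rose by 1.88. The CCAAT box was found in the promoters of all 15 members with a sequence in the table, against 42% of measured genes and 56.6% of those that rose at least 4-fold. The promoter of the most changed member is shown.
Cyp51, chr5:4104698-4104947, minus strand: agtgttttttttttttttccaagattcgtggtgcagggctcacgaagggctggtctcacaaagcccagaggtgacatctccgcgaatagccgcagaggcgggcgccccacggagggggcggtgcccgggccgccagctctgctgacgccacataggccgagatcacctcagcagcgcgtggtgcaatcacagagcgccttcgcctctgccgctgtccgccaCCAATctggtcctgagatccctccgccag

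**Figure D4:**
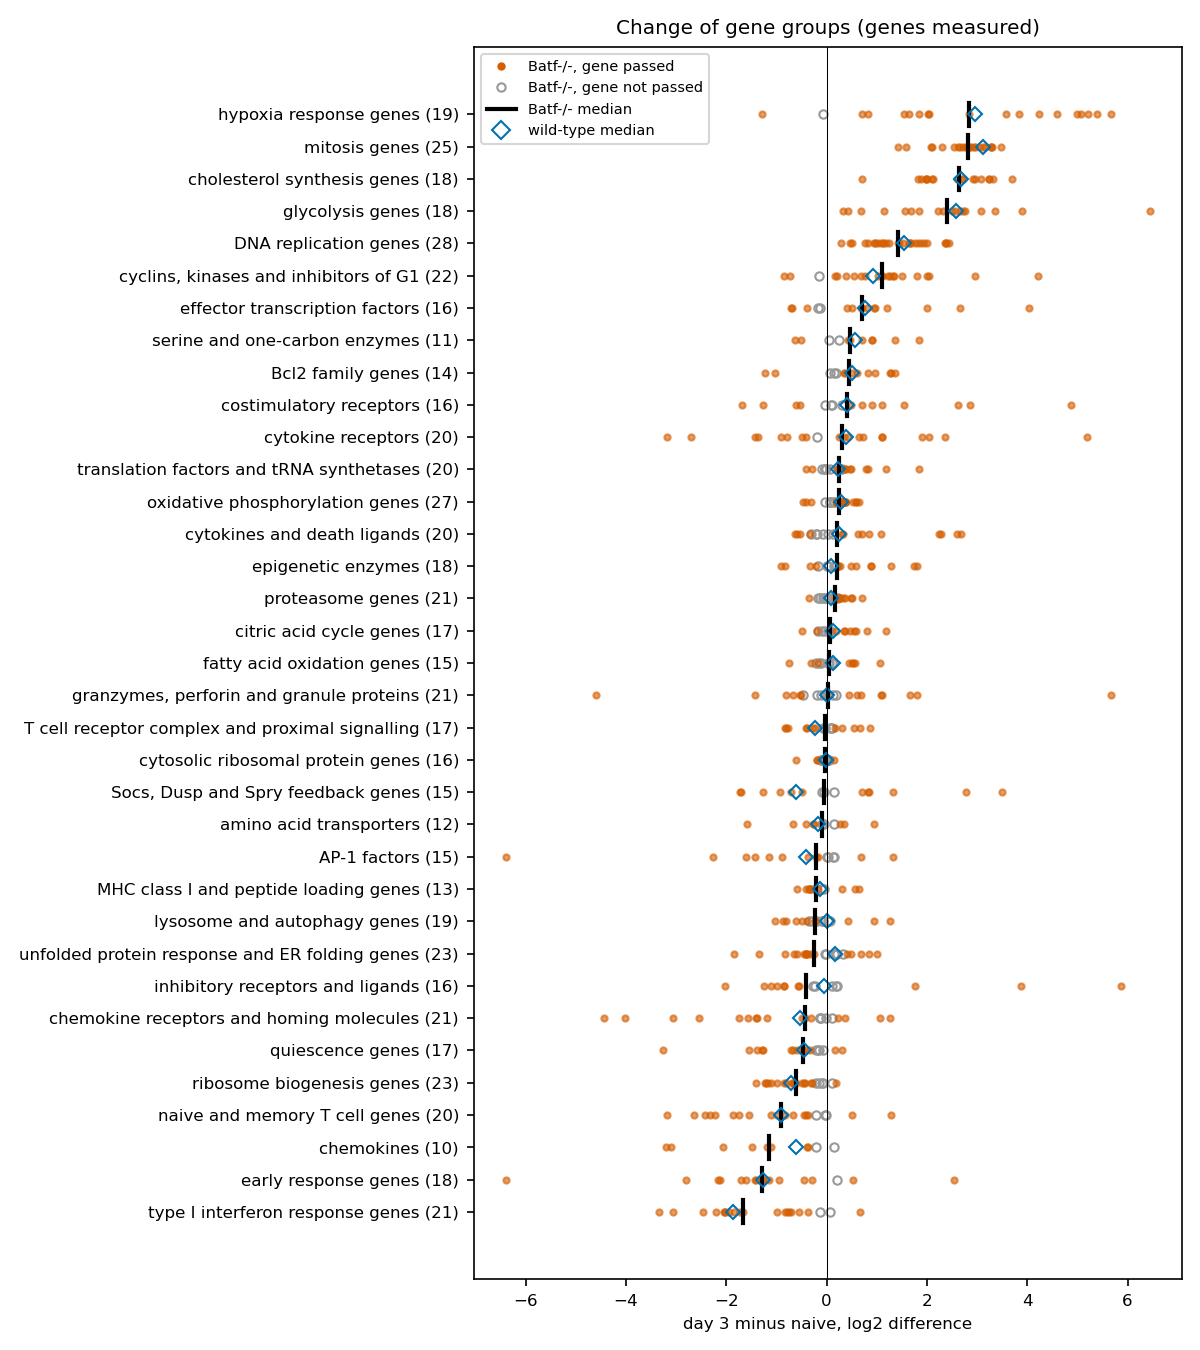
Change of each gene (day 3 minus naive, log2 difference) in groups of known function, with the number measured in parentheses, filled orange points for Batf-/- genes that passed, open grey points for those that did not, a black bar at the Batf-/- median and a blue diamond at the wild-type median. Low-oxygen, mitosis, cholesterol synthesis and glycolysis genes have medians from 2.41 to 2.84, and type I interferon response genes have the lowest, at -1.66.

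Cell division genes rose without Batf. All 25 mitosis genes and all 28 DNA replication genes passed and were higher, with medians of 2.82 and 1.43. Bub1, a spindle checkpoint kinase, read 9.03, 6.80 and 7.60 in naive cells and 11.28, 11.24, 11.32 and 11.29 at day 3 (3.48, SE 0.35). Cdk1, the kinase that drives entry into mitosis, read 9.10, 7.23 and 7.77 and then 10.97, 10.91, 10.89 and 10.89 (2.88, SE 0.30). In both genes naive replicate 1 lay well above the other naive arrays and below every day 3 array. Without that array the mitosis median was 3.33 and the DNA replication median 1.67, and all members of both lists again passed. Bub1 then rose by 4.08. Ccnb2, Aurkb and Top2a rose by 3.12, 3.27 and 3.05, and with the mean of their probe sets Top2a rose by 1.84 and Bub1 by 2.85. Among replication genes, Rrm2, a subunit of ribonucleotide reductase, rose by 2.44 and Tk1, thymidine kinase, by 2.39. Cdc6, which loads the replicative helicase, read 8.76, 6.80 and 7.32 in naive cells and 9.59, 9.60, 9.57 and 9.50 at day 3, and Mcm2, a subunit of that helicase, had the smallest difference, 0.29, with overlapping arrays. Mcm2 did not pass without naive replicates 2 or 3 or day 3 replicates 2, 3 or 4, where its difference was 0.20 to 0.30.

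Of 22 cyclins, kinases and inhibitors of G1, 19 rose and 2 fell. The inhibitor Cdkn1a (p21) read 6.59, 5.99 and 6.37 in naive cells and 10.49, 10.48, 10.55 and 10.61 at day 3, the largest increase of the list at 4.22 (SE 0.13). E2f7, a repressor of E2F targets, rose by 2.96, and by 3.61 without naive replicate 1. The D-type cyclins moved apart: Ccnd3 rose by 1.34, while Ccnd1 and Ccnd2 fell by 0.85 and 0.73 (1.43 for Ccnd1 with the mean of its probe sets). The probe sets of Ccnd3 did not move alike, since at least 1 other passed in the opposite direction, and their mean rose by 0.29. The CHR element TTTGAA was found in 71.4% of 21 mitosis promoters against 15.7% of measured genes (20.2% of all genes in the promoter table), and the CCAAT box in 76.2%. Of genes that rose at least 4-fold 29.5% held the CHR element, and of those that fell at least 4-fold 25.5%. The E2F motif TTTCCCGC was found in 6 of 23 replication promoters (26.1%) against 1.87%. The promoters of Cdk1, with both mitotic motifs, and of Cdc6, with an E2F match on the minus strand, are shown.
Cdk1, chr10:69352913-69353162, minus strand: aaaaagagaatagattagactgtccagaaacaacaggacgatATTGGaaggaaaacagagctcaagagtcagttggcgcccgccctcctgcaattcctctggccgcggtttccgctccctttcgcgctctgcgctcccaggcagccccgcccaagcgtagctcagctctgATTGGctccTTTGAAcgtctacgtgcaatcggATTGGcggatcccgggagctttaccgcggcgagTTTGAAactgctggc
Cdc6, chr11:98907901-98908150, plus strand: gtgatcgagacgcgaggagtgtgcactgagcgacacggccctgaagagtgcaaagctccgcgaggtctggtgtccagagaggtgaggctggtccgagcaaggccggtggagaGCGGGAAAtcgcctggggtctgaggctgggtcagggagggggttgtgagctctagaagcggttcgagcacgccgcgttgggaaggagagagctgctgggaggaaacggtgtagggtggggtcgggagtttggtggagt

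Ribosome biogenesis genes mostly fell, while other groups of protein synthesis did not. Of 23 ribosome biogenesis genes 17 fell and 1 rose (23.2% of all genes fell), with a median change of -0.61. Rrs1, a ribosome assembly factor, read 10.44, 10.32 and 10.15 in naive cells and 8.69, 9.01, 9.01 and 8.87 at day 3. Utp20, of the small-subunit processome, fell by 1.23. The member that rose was nucleolin (Ncl), at 0.19, but the mean of its probe sets differed by -0.13, and it did not pass without naive replicates 2 or 3 or day 3 replicates 3 or 4, with differences of 0.13 to 0.19. Of 16 ribosomal protein genes 12 did not pass, 3 fell and 1 rose, and Rps6 had the largest difference at -0.61. Of 20 translation factors and tRNA synthetases 11 rose and 2 fell, led by Eif4ebp1, an inhibitor of cap-dependent translation, at 1.84, and Cars at 1.19. Serine and one-carbon enzymes rose in 7 of 11 cases, among them Psat1 (1.85), Mthfd2 (1.36) and Phgdh (0.90). Of 12 amino acid transporters 3 rose, close to the share over all genes, and 5 fell. Slc7a5, a leucine transporter, rose by 0.94.

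Cytokine receptors were exchanged. Of 20 measured, 11 rose and 8 fell. Il7r, the receptor for the survival factor of naive cells, read 12.40, 12.60 and 12.56 in naive cells and 9.59, 9.40, 9.21 and 9.16 at day 3, a decrease of 3.18 (SE 0.11). Il2rb, the signalling chain shared by the IL-2 and IL-15 receptors, rose from 7.88, 8.51 and 8.82 to 10.78, 10.76, 10.81 and 10.74. The IL-2 receptor chains thus moved up and the IL-7 receptor down, with no overlap in Il2ra, Il2rb or Il7r. Il12rb2 rose by 2.04 from a dim naive level, Il10ra rose by 1.91, and Il6ra and Il6st, the chains of the IL-6 receptor, fell by 2.70 and 1.42. With the mean of their probe sets Il10ra rose by 0.97 and Il6ra fell by 1.81. Socs2 and Cish, inhibitors of cytokine signalling that STAT5 is known to induce, also rose: Socs2 went from 5.99, 7.0 and 7.33 to 10.08, 10.29, 10.28 and 10.42, and Cish rose by 2.79. With the mean of its probe sets Socs2 rose by 2.01. Socs3, another inhibitor of cytokine signalling, fell by 1.72. Of the 15 feedback genes of the Socs, Dusp and Spry families 6 rose and 6 fell, and Dusp1, a MAP kinase phosphatase, fell by 1.70.

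Among costimulatory and inhibitory receptors a few members changed by large amounts. Of 16 costimulatory receptors 8 rose and 4 fell, the latter close to the share of all genes. After Tnfrsf9 the largest increases were Tnfrsf18 (GITR), which went from 9.16, 9.69 and 9.53 to 12.23, 12.25, 12.43 and 12.38, and Slamf7 at 2.62. Tnfrsf25 and Slamf6 fell by 1.68 and 1.26 (1.89 for Slamf6 with the mean of its probe sets). Of 16 inhibitory receptors and ligands 8 fell, and 3 rose, which is no larger a share than over all genes. Lag3, which binds MHC class II, rose with Ctla4, from a dim 4.89, 4.15 and 4.88 to 8.55, 8.47, 8.59 and 8.46, and Entpd1, the ectonucleotidase CD39, rose by 1.76 (1.09 with the mean of its probe sets). Pdcd1, which encodes PD-1, differed by 0.19 and did not pass (adjusted p = 0.122). Klrg1, Btla and Cd96 fell by 2.02, 1.24 and 1.10. In the receptor complex itself, Themis rose by 0.87 and Cd5 and Cd6, which dampen its signals, fell by 0.77 and 0.82.

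Several transcription factors of effector cells rose in the absence of Batf. Of 16 measured, 11 rose and 3 fell. Bhlhe40 read 7.21, 7.30 and 7.31 in naive cells and 11.25, 11.27, 11.37 and 11.37 at day 3, an increase of 4.04 (SE 0.11, 16.5-fold). Irf4, the partner of Batf at composite DNA elements, went from 7.39, 6.82 and 7.47 to 9.83, 9.86, 9.97 and 9.87 (2.65, SE 0.13). Prdm1, which encodes Blimp-1, went from 5.85, 6.01 and 6.61 to 8.21, 8.15, 8.13 and 8.17 (2.01, SE 0.14). The arrays of the groups overlapped in none of these. The T-box factors moved apart. Tbx21 (T-bet) read 7.54, 8.32 and 8.06 in naive cells and 7.38, 7.25, 7.29 and 7.11 at day 3, a decrease of 0.71 (adjusted p = 0.00116). Eomes, its relative, read 8.76, 9.99 and 10.49 and then 10.63, 10.77, 10.76 and 10.66, an increase of 0.96 (adjusted p = 0.0124), and was lowest in naive replicate 1. Without that array Eomes rose by 0.46. Myc differed by -0.17 and did not pass (adjusted p = 0.0789).

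Early response genes were high in the naive preparations and lower at day 3. Of 18 measured, 15 fell and 2 rose, with a median change of -1.30. Fos read 12.48, 11.89 and 12.14 in naive cells and 5.77, 5.90, 5.71 and 5.73 at day 3, a decrease of 6.39 (SE 0.12, 84.1-fold). Egr1, a zinc finger factor induced by MAP kinase signals, read 10.26, 10.22 and 10.20 and then 7.44, 7.62, 7.40 and 7.21. Both were lower in every day 3 array than in any naive array. Jun and Egr2 fell by 1.61 and 2.16, and Nr4a1, a reporter of receptor signals, fell by 0.45. Ier3 rose by 2.54 and Nr4a3 by 0.52, against the direction of the list, and the mean of the Nr4a3 probe sets differed by 0.17 and did not pass. Among the 15 measured AP-1 factors, several of which are also early response genes, 2 rose and 9 fell: Fosl2 rose by 1.32, and Maf fell by 2.27 (1.31 with the mean of its probe sets). Batf3, the closest relative of Batf, differed by 0.16 and did not pass (adjusted p = 0.232). The AP-1 motif TGANTCA was in none of 14 early response promoters and in 7.79% of those that rose at least 4-fold, against 7.54% of measured genes.

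Among effector products, Gzmb and Gzma had large changes in opposite directions, and the granule genes as a list did not move one way. Of 21 granule genes 8 rose and 6 fell, with a median change of 0.02, against 23.8% and 23.2% of all genes. While Gzmb rose, Gzma fell from 11.49, 12.52 and 11.76 to 7.78, 7.33, 6.97 and 7.23, a decrease of 4.60 (SE 0.23, 24.2-fold). Markers of NK cells, which also hold Gzma, fell between the same arrays as given above, and their part in this decrease was not tested. Perforin (Prf1) read 8.66, 8.94 and 9.14 in naive cells and 8.46, 8.33, 8.41 and 8.36 at day 3, a decrease of 0.52. Day 3 values of Gzma varied more between arrays than those of Gzmb. The serpins Serpinb6b and Serpinb9, which are known to protect cells from granzymes, rose by 1.81 and 1.11. The transcripts of Gzmd, Gzme, Gzmf and Gzmg were dim in both states, and Gzmd and Gzmf are among the 8 that rose. Of 20 cytokines and death ligands 10 rose and 4 fell. Fasl, the ligand of the death receptor Fas, went from 5.95, 6.16 and 6.61 to 8.67, 8.93, 8.92 and 8.82, and Lta, lymphotoxin alpha, rose by 2.24. Ifng rose by 0.70 (SE 0.08), and Il2 was dim in both states. Of 10 chemokine genes none rose and 8 fell, with a median change of -1.15 (-0.80 without naive replicate 1). Ccl5 read 11.24, 12.49 and 12.53 in naive cells and 10.18, 9.98, 9.96 and 9.97 at day 3. Cxcl9 fell by 3.20, to a dim level, and by 2.03 with the mean of its probe sets. Its naive values were 7.77, 6.31 and 7.40, highest in replicate 1. The part of other cells in the chemokine decreases was not tested.

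Genes that mark naive and memory cells mostly fell. Of 20 measured, 15 fell and 2 rose, with a median change of -0.91. Beside Il7r, these included Igfbp4 (-2.64) and Klf3 (-2.43), at -1.70 and -1.46 with the mean of their probe sets. S1pr1, the receptor that guides exit from lymph nodes, read 9.84, 10.44 and 10.11 in naive cells and 8.50, 8.32, 8.24 and 8.50 at day 3. Klf2, the factor that maintains S1pr1, fell by 1.54, and Id3 fell by 1.86. Ccr7 and Cd27 differed by 0.00 and -0.03. Bcl2 and Txk rose by 1.29 and 0.51, against the direction of the list. Of 17 quiescence genes 11 fell and 2 rose, with Klf4 at -3.26, Btg1 at -1.38 and Slfn2 at -1.28 (Klf4 at -2.30 and Btg1 at -2.0 with the mean of their probe sets). Those that rose were Foxo3, at 0.32 but not passing with the mean of its probe sets (0.13), and the cell cycle inhibitor Cdkn1b, at 0.17 but not passing without naive replicates 1 or 3 or day 3 replicates 2, 3 or 4 (0.15 to 0.18). Klf4 was highest in naive replicate 1, at 8.35 against 6.68 and 6.97.

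Homing molecules were reduced more often than raised. Of 21 chemokine receptors and homing molecules 12 fell and 4 rose. Ccr9, the receptor that directs cells to the small intestine, read 10.88, 11.37 and 10.84 in naive cells and 6.68, 6.82, 6.33 and 6.51 at day 3, a decrease of 4.44 (SE 0.15). Itgae, the CD103 integrin chain that holds cells in epithelia, went from 8.84, 9.79 and 9.48 to 5.90, 5.24, 5.14 and 5.12, and Itga4, of the gut-homing integrin, fell by 3.06. In none of these 3 genes did the arrays overlap. With the mean of their probe sets Ccr9 fell by 2.87 and Itga4 by 2.03. Cxcr6 fell by 2.53. Cxcr3 fell by 1.19 (adjusted p = 0.0315), with overlapping arrays and the lowest naive value in replicate 1. Its change was -1.78 without that array, and between -0.72 and -1.19, no longer passing, without naive replicates 2 or 3 or day 3 replicates 2, 3 or 4. Itgb3, a chain of the vitronectin receptor, rose by 1.26.

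Type I interferon response genes fell together. Of 21 measured, 18 fell and 1 rose, with a median change of -1.66. Ifit1, which binds foreign RNA caps, read 8.58, 8.75 and 8.51 in naive cells and 5.46, 5.46, 5.06 and 5.10 at day 3, a decrease of 3.34 (SE 0.18, 10.1-fold). Oasl2 fell by 3.05, Rtp4 by 2.46 (1.62 with the mean of its probe sets) and Irf7, which amplifies interferon production, by 2.02. Stat2, a subunit of the factor that drives these genes, rose by 0.67. The MHC class I and peptide loading genes, which interferons also regulate, moved less: 7 of 13 fell and 3 rose, with Tap1 at 0.66, Psmb9 at 0.58 and Tapbp at -0.59. The interferon-stimulated response element core was found in 9 of 16 promoters of the list (56.2%), in 3.63% of measured genes and in 9.24% of those that fell at least 4-fold. Ifit1 holds matches on the minus strand.
Ifit1, chr19:34640639-34640888, plus strand: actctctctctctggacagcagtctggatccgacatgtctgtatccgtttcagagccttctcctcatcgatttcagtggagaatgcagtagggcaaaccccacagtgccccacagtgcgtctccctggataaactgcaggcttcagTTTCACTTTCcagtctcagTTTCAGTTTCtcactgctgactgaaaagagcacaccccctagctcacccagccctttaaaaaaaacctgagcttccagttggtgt

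Other housekeeping and survival groups changed modestly. Of 14 Bcl2 family genes 9 rose and 2 fell, including the survival genes Bcl2l1 (1.26, or 0.63 with the mean of its probe sets) and Bcl2l2 (1.37, or 0.56) and the killers Pmaip1 (0.97) and Bcl2l11 (0.82), while Mcl1 and Bid fell by 1.23 and 1.03. Mcl1, a short-lived survival protein, read 12.35, 12.47 and 12.40 in naive cells and 11.23, 11.22, 11.18 and 11.09 at day 3. In the unfolded protein response and folding list 12 of 23 genes fell and 5 rose, with Dnajb9 at -1.84, Hspa5, the main chaperone of the endoplasmic reticulum, at -0.59 and P4hb at 1.0. Of 21 proteasome genes 10 rose and 1 fell, none by more than 0.71 in size. Of 19 lysosome and autophagy genes 8 fell and 3 rose, with Neu1 at -1.02 and Gabarapl1 at 1.26. Of 18 epigenetic enzymes 9 rose and 4 fell. Ezh2, the histone H3 methyltransferase of Polycomb, rose by 1.81, the methyltransferases Nsd2 and Dnmt1 by 1.74 and 1.29, and Kmt2a fell by 0.91.

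Most of these changes occurred in wild-type cells too. Of the genes that passed in Batf-/- cells 6800 passed in the same direction in wild-type cells, which is 79.6% of the 8545 Batf-/- calls and 82.3% of the 8258 wild-type calls (45.4% of all genes), and 19 passed in the opposite direction. Across genes, which are not independent replicates, the changes had a Pearson r of 0.945, and these comparisons share no arrays. The calls of the genotypes do share each gene's estimate of the spread, which is pooled over all groups, so they are not independent. Median changes of the mitosis, glycolysis and cholesterol lists in wild-type cells were 3.12, 2.59 and 2.69, against 2.82, 2.41 and 2.64 in Batf-/- cells. Without Batf-/- naive replicate 1 the Batf-/- medians were 3.33, 2.47 and 2.53, so the order of the genotypes for mitosis genes depended on that array. The change itself differed between genotypes for 118 genes (0.649%), 30 with a higher (0.165%) and 88 with a lower change in Batf-/- cells (0.484%). With arrays centred on their medians the split was 42 and 69 of 111. This count depended on single arrays. It was 270 without Batf-/- naive replicate 1, 283 without replicate 2, 72, 66 and 62 when the wild-type day 3 arrays 1, 2 and 3 were left out in turn, and 58, 60 and 62 without Batf-/- day 3 replicates 2, 3 and 4. It was 542 with array weights. Of the 29 differences named below, 12 passed again in every alternative tried, including the omission of each array in turn: those of Slc15a2, Cnga1, Morc1, Klrk1, Alcam, Tg, Bank1, Ttc39c, Batf3, Ctla4, Egln3 and Tnfrsf4. The other 17 kept their direction and lost the call without at least 1 array, which for Bhlhe40, Ccr9, Erdr1, Gpld1, Igkv6-14, Idi1 and Myc was a wild-type naive array. Only 2 such arrays exist, and without 1 of them the other is assumed to vary like the other groups.

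Among genes with a higher change in Batf-/- cells, Slc15a2, a peptide transporter, read 8.99, 9.71 and 8.93 in naive and 6.56, 6.50, 6.43 and 6.44 in day 3 Batf-/- cells, and 10.49 and 9.99 in naive and 3.78, 4.18, 4.44 and 3.86 in day 3 wild-type cells. It fell in both genotypes, by 2.73 without Batf and by 6.18 in wild type (difference 3.45, SE 0.30, adjusted p = 0.000352). The mean of its probe sets fell by 0.96 without Batf. Ccr9 likewise fell in both genotypes, by 4.44 without Batf and 5.88 in wild type (adjusted p = 0.0118), and so did Qpct and Cnga1. Upp1, uridine phosphorylase, rose by 1.74 in Batf-/- cells and differed by 0.29 in wild-type cells. Morc1 rose in both genotypes, by 2.72 and 1.57. Arhgap5 differed by 0.34 in Batf-/- cells, a change that did not pass without naive replicate 1 (0.20) or day 3 replicates 2, 3 or 4 (0.29 to 0.34), and by -0.73 in wild type. Erdr1 differed by 0.62 in Batf-/- cells, with naive values of 10.52, 8.75 and 10.75, and by -2.52 in wild type.

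Among genes with a lower change in Batf-/- cells, Klrk1, which encodes the activating receptor NKG2D, read 7.99, 8.29 and 8.31 in naive and 8.15, 7.81, 7.73 and 7.59 in day 3 Batf-/- cells. In wild-type cells it went from 6.98 and 7.20 to 8.90, 9.0, 9.04 and 9.19, an increase of 1.95 against a difference of -0.38 without Batf (difference of the changes -2.32, SE 0.19, adjusted p = 0.000352). Naive Batf-/- cells were thus above and day 3 Batf-/- cells below their wild-type counterparts. NK cells also use Klrk1, and the summed NK markers without Il2rb and Klrk1 were higher in naive Batf-/- arrays, 1387 to 3601, than in naive wild-type arrays, 1019 and 1127. At day 3 these sums overlapped, at 158 to 190 in Batf-/- and 149 to 178 in wild-type arrays, and their part in the difference was not tested. Alcam, the ligand of CD6, differed by -0.49 without Batf and rose by 1.5 in wild type, and Ttc39c differed by -0.37 and rose by 1.38. The Batf-/- changes of these 3 genes passed, but not without some single arrays: -0.30 to -0.35 for Klrk1 without naive replicates 2 or 3 or day 3 replicates 3 or 4, -0.38 to -0.42 for Alcam without naive replicates 1 or 3 or day 3 replicate 4, and -0.25 and -0.31 for Ttc39c without naive replicate 3 and day 3 replicate 2. Tg and Gpld1 rose in both, by 1.16 and 0.90 without Batf and by 3.59 and 2.87 in wild type. For Abi3bp, Bank1 and Igkv6-14 the change in Batf-/- cells was the larger decrease, by 3.41, 3.32 and 4.40 (4.00 for Abi3bp without naive replicate 1 and 2.62 with the mean of its probe sets), and all 3 had naive means above those of wild type. Bank1 is a B cell gene and Igkv6-14 an immunoglobulin gene, and the summed B cell markers were higher in naive Batf-/- arrays, 8996 to 13629, than in naive wild-type arrays, 6538 and 7571. Their part in these differences was not tested.

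The genotypes also differed for members of the groups described above. Bhlhe40 rose by 5.13 in wild type against 4.04 (adjusted p of the difference = 0.0118), Ctla4 by 7.05 against 5.88 (0.00741), Egln3 by 5.35 against 4.24 (0.00492) and Aldoc by 7.53 against 6.44 (0.0320). Tnfrsf4, the receptor OX40, rose by 2.53 in wild type against 1.54. Batf3 had a wild-type change of 1.26 against 0.16 (adjusted p of the difference = 0.00692). Il7r fell by 2.27 in wild type against 3.18 without Batf. Myc had a wild-type change of -0.87 against -0.17, and Spred2 of -0.88 against -0.08. Of the cholesterol synthesis genes, Cyp51, Fdps, Idi1 and Sqle differed, with wild-type changes 0.58 to 0.68 larger. For Irf4, Prdm1, Gzmb, Tbx21 and Gzma the differences of -0.47, -0.76, -0.47, -1.04 and -1.19 did not pass (adjusted p = 0.359, 0.141, 0.381, 0.0637 and 0.171), which does not show that the genotypes respond alike. Some of them passed when a Batf-/- naive array was left out: Tbx21 differed by -1.26 without replicate 1 and by -0.87 without replicate 2, Prdm1 by -0.91 without replicate 1 and Irf4 by -0.68 without replicate 2.

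**Figure D5:**
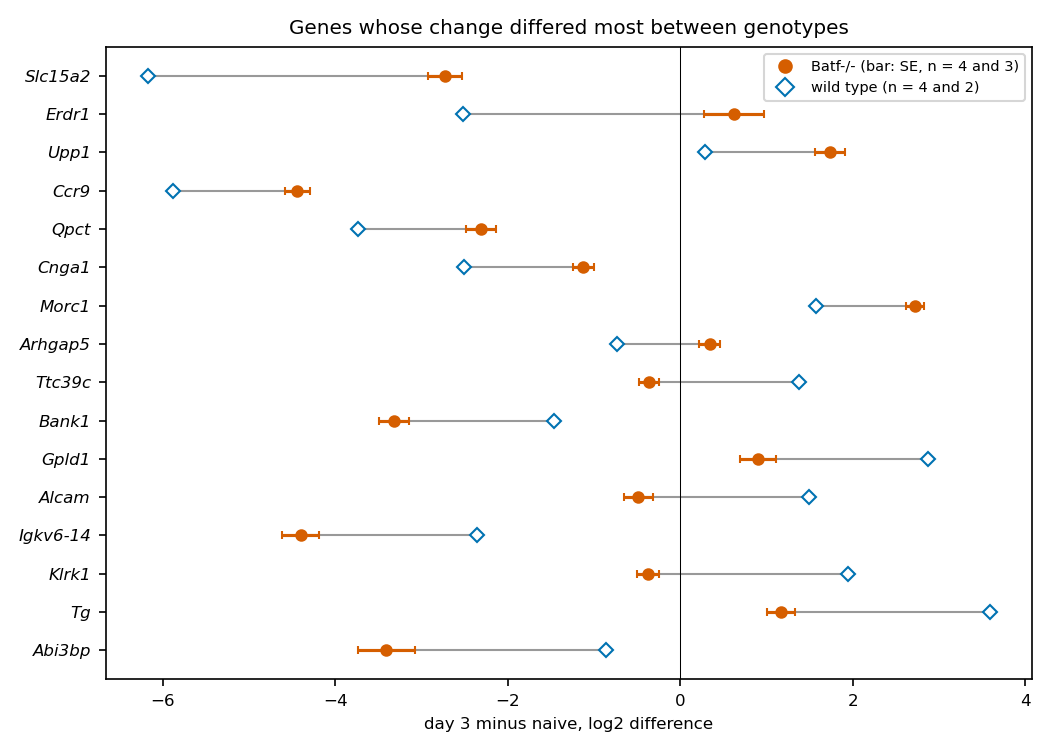
Change from naive to day 3 (log2 difference) in Batf-/- cells (orange circles, bars give the SE) and wild-type cells (blue diamonds) for the 16 genes with the largest differences between genotypes. The widest gap is that of Slc15a2, at -2.73 against -6.18, and Klrk1 and Alcam lie on opposite sides of 0.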

How the data were processed

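RNA of 13 samples was hybridised to expression arrays after biotin labelling, per the labels' protocols. The deposited intensity values are on a linear scale and were summarised with RMA, which corrects background, normalises between arrays and summarises the probes of a set, per the submitters' processing notes. No version is given there. The deposited values (median intensity 31.5 to 32.5 in every array) were converted here to log2 and not normalised again. Gene names came from the platform annotation: 34958 probe sets had 1 symbol, 932 several and 9211 none. Control probe sets were left out, no dim probe set was filtered, and the brightest probe set, by its mean over the 13 arrays, stood for its gene (a choice for 9010 of 18193 genes, of which 18032 are in the RefSeq gene table). Of genes with a passing probe set, 433 of 9625 had probe sets that passed in both directions.

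Group means of all 13 arrays were fitted with limma 3.58.1 (lmFit, eBayes) in R 4.3.3, with 9 residual and 3.702 prior degrees of freedom, and Benjamini-Hochberg adjustment over all genes. The difference between genotypes was the interaction contrast of that fit. The fit was tested on simulated data with independent noise of equal spread in all groups, which these arrays need not have. Precision is limited by how many arrays each group has.

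The arrays, gene lists and tests were chosen with earlier results of these data known. Genes named are Batf, the 15 largest increases and decreases among genes that passed without overlap of arrays, the 8 largest differences between genotypes in each direction (clone and model names left out), and up to 5 members of each list per direction or those against its direction; a few others described beside them were chosen after their values were seen. Alternatives covered normalisation, the choice of probe sets, dim genes, the variance model, a replicate block, an added constant and the omission of each array.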

Additional observations from a re-analysis of the deposited data

Results flagged for a closer look

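In 7 of the 203 genes named, 1 of the 4 Batf-/- day 3 arrays lay far from the others on a test for outliers, which flags about 1 in 20 groups by chance, more than the share found here. Day 3 replicate 1 held the odd value in all of them except Igha. It was highest for Ccl5 at 10.18, for Cd8a at 11.83 and for Itgae at 5.90, and lowest for Myc at 9.53, for Tspoap1 at 9.95 and for Vldlr at 8.64. For Igha the highest value, 5.68, was that of replicate 3. It was also replicate 1 that held the highest Batf value, 6.77.

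The change from naive to day 3 differed between Batf-/- and wild-type cells, by the interaction contrast, for 29 of the genes named. Changes higher in Batf-/- cells than in wild-type cells, on the log2 scale, were those of Slc15a2 (3.45), Erdr1 (3.13), Upp1 (1.45), Ccr9 (1.44), Qpct (1.43), Cnga1 (1.39), Morc1 (1.15), Arhgap5 (1.07), Spred2 (0.80) and Myc (0.70). Lower changes in Batf-/- cells were found for Abi3bp (-2.55), Tg (-2.43), Klrk1 (-2.32), Igkv6-14 (-2.05), Alcam (-1.98), Gpld1 (-1.97), Bank1 (-1.86) and Ttc39c (-1.75). Among the T cell activation genes the differences were -1.18 for Ctla4, -1.09 for Bhlhe40, -1.11 for Batf3, -0.99 for Tnfrsf4 and -0.91 for Il7r. In the metabolic groups they were -1.09 for Aldoc, -1.11 for Egln3, -0.68 for Fdps, -0.65 for Cyp51, -0.63 for Sqle and -0.58 for Idi1.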

How the results depend on the processing

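The count of genes that changed in Batf-/- cells, 8545, stayed within 1.5 times in all alternatives but 2: a required change of 2-fold (limma's treat) left 1021, and testing all single-symbol probe sets gave 15092 of 34945. It was 7900 to 8521 without single Batf-/- naive arrays and 7865 to 8253 without single Batf-/- day 3 arrays. The count of changes of at least 2-fold, 1853, ranged from 1468 to 1914. The 118 differences between genotypes became 542 with array weights, 197 with 16 added before log2 and 58 to 283 without single arrays, and their test was not possible in a fit of only the 7 Batf-/- arrays. Of 203 named genes, 190 passed, 16 of which lost the call in at least 1 alternative, and Ncl reversed, to -0.13, with the mean of its probe sets. That mean gave folds over 1.5 times smaller for 30 genes, and adding 16 moved 29, most of them dim in a group. In both cases the cause was not tested.

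Naive and day 3 arrays with the same replicate number did not deviate together (correlations of -0.06, 0.03 and -0.05), so the numbers were not taken as pairs. With the replicate number as a block, 7852 genes changed and 50 differed between genotypes. In the 7 Batf-/- arrays alone, an alternative chosen after seeing the data, the block gave 6043, and 7752 passed without it.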
